A study of Mus musculus with 18 samples.

Results

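The suppressor of cytokine signalling (SOCS) genes encode feedback inhibitors of cytokine receptors, and all 8 mouse members, Cish and Socs1 to Socs7, were followed here in bone marrow–derived dendritic cells (DCs) that migrated through collagen gels or were kept in suspension. The members were taken by gene symbol, each matched to 1 Ensembl gene, as 8 of the 29875 genes in the deposited count table. All 8 passed the filter on low counts that left 13844 genes for testing. They were picked as a gene family and not by their measured levels, although members and tests were set with earlier results of these data known. Against suspension, Socs5 was the member called higher in collagen (1.67-fold), 1 of 8 beside 20.2% of all genes tested. With the replicate number as a block Socs7 passed the test as well (log2 change 0.39), 2 of 8 beside 34.8% of all genes. The Socs5 call was lost, in the fit without the block, when replicate 1 or replicate 2 was left out. The Socs7 call was lost when any whole replicate was left out. The cytokine-induced members Cish, Socs1, Socs2, and Socs3 did not pass the test when the 4 gels were pooled into a single comparison.

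SOCS proteins carry an SH2 domain that binds phosphorylated tyrosines and a SOCS box that recruits elongins B and C and a cullin ubiquitin ligase, so that a bound receptor, JAK kinase, or adaptor can be inhibited or marked for degradation. CIS (from Cish), SOCS1, SOCS2, and SOCS3 are classical feedback inhibitors: STAT transcription factors activated by a cytokine induce the gene, and the protein then dampens the same receptor. In DCs, GM-CSF acts through STAT5, interleukin-6 and interleukin-10 through STAT3, and interleukin-4 through STAT6, and SOCS1 and SOCS3 in addition block JAK catalytic activity directly. SOCS4, SOCS5, SOCS6, and SOCS7 are less tied to cytokine induction and have been linked mainly to receptor tyrosine kinases and signalling adaptors.

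The DCs were grown with GM-CSF from bone marrow of wild-type C57Bl6/J mice aged 8 to 12 weeks and were stimulated on day 8 with 200 ng/ml lipopolysaccharide (LPS) for 24 hours, so every group, the controls included, carries both agents. RNA was taken 5 hours after the gradient of the chemokine CCL19 was set up, from collagen of 1.7, 2.6, 3.5, or 4.4 mg/ml or from the same chambers without collagen. The 18 libraries hold 3 replicates of each of 4 collagen and 2 suspension groups. The suspension groups are titled plus CCL19 and without CCL19, but titles and library names contradict each other on the chemokine, so the groups keep their titles and no CCL19 direction is given. The library names of 1 replicate share a date, of a kind not stated, and a sequencing lane, which makes the replicate a batch that contains every group once, and replicates 1 and 3 carry the same flow cell name. GM-CSF cultures hold other myeloid cells besides DCs.

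Total counts ranged from 13062944 to 28059839 per library, at which 3 counts correspond to 0.107 to 0.230 CPM (the count scaled to a common library size, with edgeR's TMM factors except for this floor and the marker sums). All 10 DC markers looked up, Itgax, Zbtb46, and Ccr7 among them, were detected. Their summed level had a median of 62430 CPM in suspension and 60150 CPM in collagen, and its largest terms were Ccl22 and Cd74 (medians 28490 and 18620 CPM). Flt3 was lower in collagen (adjusted p = 0.0446, and 0.000518 with the block, edgeR). Itgax was called higher with the block (adjusted p = 0.0168, edgeR) and not without it (0.351), and the other DC markers were not called in either fit. Of 6 markers of T and NK cells Cd3e, Cd3g, Ncr1, and Klrb1c had a median of 0 CPM and Cd3d of 0.126 CPM. Il7r, the interleukin-7 receptor chain that is not confined to these cells, had 73.1 CPM, and the sum of the 6 had a median of 100.1 CPM in suspension and 57.0 CPM in collagen. Markers of eosinophils moved with the comparison: their summed level was 133 to 1373 CPM (median 374) in suspension and 16.04 to 143 CPM (median 42.3) in collagen, and 8 of the 9 listed markers were tested, and all 8 were called lower in collagen. The medians for neutrophil markers were 2568 and 1863 CPM, for macrophage markers 1873 and 2417 CPM, and for basophil and mast cell markers 79.8 and 26.4 CPM. Of the last, Ms4a2 and Cd200r3 were called lower in collagen with the block (adjusted p = 0.0233 and 0.0856, edgeR) and not without it (0.372 and 0.441). Of 8 neutrophil markers Ly6g was lower in collagen (adjusted p = 0.0245, and 0.0067 with the block, edgeR) and the other 7 were not called in either fit. Of 8 macrophage markers Adgre1, Fcgr1, Cd14, Cd68, and C1qa were called higher in collagen with the block (adjusted p = 0.0046 to 0.0985, edgeR) and not without it (0.205 to 0.6254), and the blocked fit is the one in which Socs7, and Socs3 at 4.4 mg/ml, were called. Their part in the results on SOCS genes was not tested. In RNA from a cell mixture, fewer cells of a type and less RNA per cell cannot be told apart.

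Cish and Socs3 are shown first because their promoters hold the letters TTCNNNGAA, the core that STAT proteins bind, which reads the same on both strands. RefSeq promoter windows of 300 bases on GRCm38.p6 (250 before and 50 after the start of transcription) were at hand for 4 members, Cish, Socs1, Socs3, and Socs4. Capitals mark each match in the following stretches, which run 5′ to 3′ along the gene's strand.
Cish, plus strand, chr9:107296559-107296688, 100 bases before to 30 bases after the RefSeq start: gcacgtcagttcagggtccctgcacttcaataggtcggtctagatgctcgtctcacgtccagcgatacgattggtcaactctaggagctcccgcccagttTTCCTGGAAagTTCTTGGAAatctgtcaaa
Socs3, minus strand, chr11:117969467-117969566, 200 to 101 bases before the RefSeq start: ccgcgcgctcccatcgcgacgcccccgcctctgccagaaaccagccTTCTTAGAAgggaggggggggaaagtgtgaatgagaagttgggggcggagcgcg
In Cish the 2 matches begin at bases 1 and 12 from the RefSeq start, and the GENCODE model of Cish begins further upstream. In Socs3 the match begins 154 bases before the RefSeq start. The GENCODE model of Socs3 also begins further upstream, so the match lies within its span. The windows of Socs1 and Socs4 hold 0 matches to these letters. Of all 32851 RefSeq promoter windows of this length, 8.30% hold at least 1 match and 0.457% at least 2. A match describes the sequence and was not tested as a binding site.

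The feedback inhibitors of the classical type were the most abundant. Per kilobase of exon (CPM per kb, which allows levels of different genes to be set side by side), the 12 collagen libraries averaged 58.9 ± 25.8 for Socs3, 54.5 ± 11.1 for Cish, 24.8 ± 14.9 for Socs2, and 16.7 ± 7.06 for Socs1 (SD, n = 12). Socs7 followed with 6.43 ± 1.68, Socs4 with 4.71 ± 2.73, Socs5 with 2.00 ± 0.671, and Socs6 with 0.746 ± 0.253. Neighbours in this order whose means lie closer than the larger of their SDs are Socs3 and Cish, Socs2 and Socs1, Socs7 and Socs4, and Socs4 and Socs5. In suspension the order differed at the top, with 50.9 ± 17.8 for Cish, 49.4 ± 11.8 for Socs3, 19.6 ± 7.31 for Socs1, and 19.1 ± 8.40 for Socs2 (SD, n = 6), where the members of each pair lie within an SD of each other. The lengths are unions of all annotated exons, so genes with long rarely used exons are set too low.

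**Figure D1:**
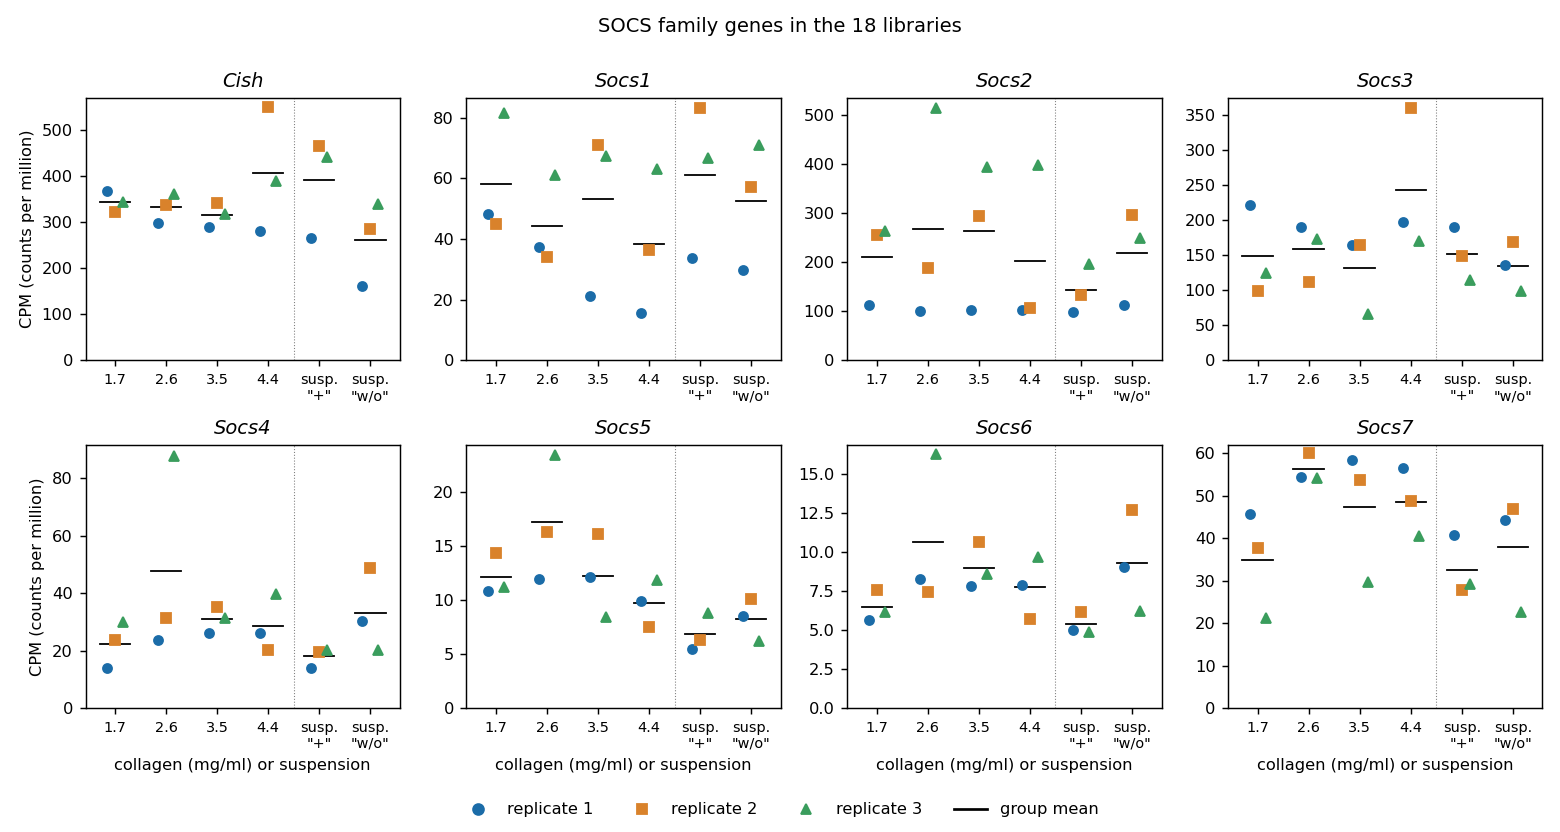
CPM of each SOCS gene (vertical axes, linear, starting at 0) in the 3 libraries of each of the 4 collagen densities and the 2 suspension groups (titled plus CCL19, "+", and without, "w/o"), with symbols by replicate and black bars at group means. For Socs5, 9 of the 12 collagen libraries lie above all 6 suspension libraries, and for Socs2 the library of replicate 1 is the lowest in every group.

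Socs5, an inhibitor described for the EGF receptor and for interleukin-4 signalling, had 5.52, 6.29, and 8.80 CPM in the suspension libraries titled plus CCL19 and 8.54, 10.1, and 6.26 CPM in those titled without (replicates 1, 2, and 3). The collagen libraries had 10.9, 14.4, and 11.2 CPM at 1.7 mg/ml, 11.9, 16.3, and 23.5 CPM at 2.6 mg/ml, 12.1, 16.2, and 8.41 CPM at 3.5 mg/ml, and 9.97, 7.51, and 11.8 CPM at 4.4 mg/ml. The highest suspension library was thus exceeded by every library at 1.7 and 2.6 mg/ml, by 2 of 3 at 3.5 mg/ml, and by 1 of 3 at 4.4 mg/ml, and the ranges of collagen and suspension overlap in the remaining 3. The raw counts behind these levels were 88 to 749 per library. At least 9 of 12 collagen libraries lay above all suspension libraries in 4.03% of all genes tested.

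Over the 4 gels, Socs5 was 12.9 ± 4.31 CPM in collagen (SD, n = 12) and 7.58 ± 1.80 CPM in suspension (SD, n = 6), a log2 change of 0.74 (95% interval 0.28 to 1.20, adjusted p = 0.0342, edgeR). The mean was higher in collagen in 3 of 3 replicates, by 0.70, 0.70, and 0.77 on the log2 CPM scale. The exact two-sided permutation test of the 12 against the 6 libraries gave p = 0.00296. This test exchanged libraries freely between replicates, so it did not take the replicate batches into account. Socs5 was the 1 SOCS gene of 8 called in this comparison, where 20.2% of all genes tested were called, 7.78% higher and 12.4% lower in collagen. The call was lost when replicate 1 was left out (0.78, adjusted p = 0.133) or replicate 2 (0.75, adjusted p = 0.221), and with no filter on low counts (0.71, adjusted p = 0.161).

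Socs7, which binds the adaptor NCK, had the next most uniform difference. The suspension libraries ranged from 22.7 to 46.8 CPM with a median of 34.9 CPM. The collagen libraries had 45.6, 37.6, and 21.2 CPM at 1.7 mg/ml, 54.4, 59.9, and 54.2 CPM at 2.6 mg/ml, 58.4, 53.7, and 29.6 CPM at 3.5 mg/ml, and 56.5, 48.7, and 40.5 CPM at 4.4 mg/ml (replicates 1, 2, and 3). Thus 7 of the 12 collagen libraries lay above all 6 suspension libraries and 1 lay below them, where at least 7 lay above in 8.65% of all genes. The log2 change was 0.39 (95% interval -0.06 to 0.84, adjusted p = 0.249, edgeR) and passed the threshold with the replicate number as a block (0.39, 0.07 to 0.72, adjusted p = 0.0689), a fit in which 34.8% of all genes were called, 15.6% higher and 19.3% lower. The same block left Socs5 at 0.74 (adjusted p = 0.0135), so that the count rose from 1 to 2 of 8. Leaving out any whole replicate from the blocked fit, a choice made after the data were seen, ended the call of Socs7 (adjusted p = 0.135 to 0.211).

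**Figure D2:**
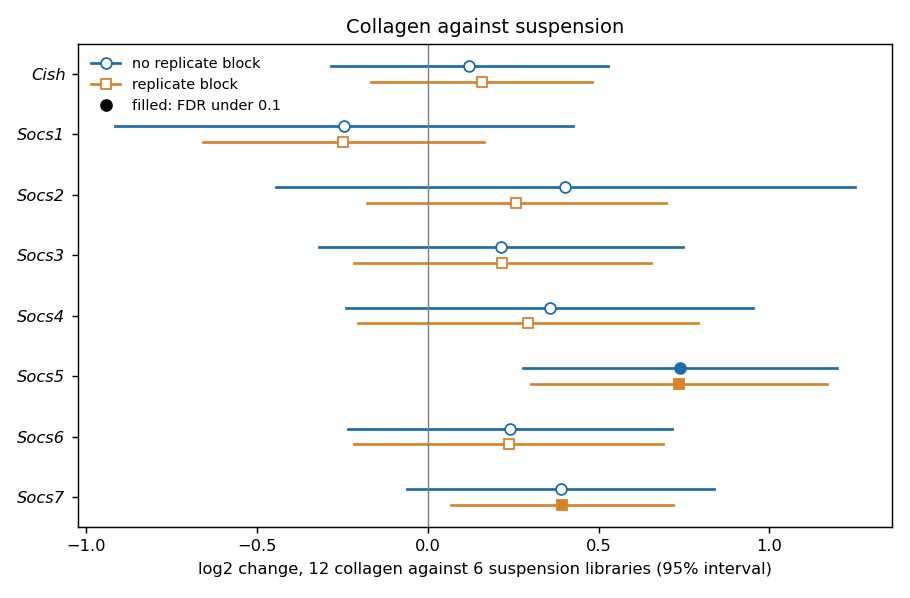
Log2 change of each SOCS gene between the 12 collagen and the 6 suspension libraries (horizontal axis, with 95% intervals), without (circles) and with (squares) the replicate block, filled where the FDR is under 0.1. Socs5 is filled in both fits and Socs7 with the block, and the intervals of the other 6 genes include 0.

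The cytokine-induced members did not pass the test in collagen as a whole. Cish, a STAT5 target that dampens the GM-CSF and interleukin-2 family receptors, was 350 ± 71.2 CPM in collagen and 326 ± 114 CPM in suspension, with a log2 change of 0.12 (95% interval -0.28 to 0.53, adjusted p = 0.729, edgeR). Socs1, which restrains interferon and interleukin-12 responses in DCs, was 48.5 ± 20.5 and 56.9 ± 21.2 CPM, with a change of -0.25 (95% interval -0.92 to 0.43). Socs2, known for limiting growth hormone signalling, was 237 ± 142 and 182 ± 80.0 CPM (0.40, -0.45 to 1.25), and Socs3, the inhibitor of the gp130 and G-CSF receptors, was 170 ± 74.7 and 143 ± 34.0 CPM (0.21, -0.32 to 0.75; SD, n = 12 and 6 in each case). These intervals, from the fit without the block, reach to fold changes of 1.44 for Cish, 1.68 for Socs3, and 2.38 for Socs2 upward. For Socs1 they reach 0.530 downward, so this fit does not exclude changes up to those sizes. With the block the same limits were 1.40, 1.57, and 1.62 upward and 0.634 downward.

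Socs4, close in sequence to Socs5, and Socs6, an inhibitor linked to KIT and insulin receptor signalling, did not pass the test either (0.36, -0.24 to 0.95, and 0.24, -0.24 to 0.71). With the block the adjusted p of Cish, Socs1, Socs2, Socs3, Socs4, and Socs6 ranged from 0.378 to 0.483 (edgeR). The exact two-sided permutation p of these 6 genes ranged from 0.325 for Socs6 to 0.556 for Socs3. Over the 8 genes the median log2 change was 0.30, with 7 of 8 positive, beside a median of 0.0027 and 50.2% positive over all genes tested. With GC and length offsets added to the block, Cish passed as well (0.40, adjusted p = 0.0401, edgeR), and the 2158 genes called higher and 2665 called lower with the block alone became 2660 and 2531.

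Against the individual densities, which all share the same 6 suspension libraries, Socs5 was 0.69 (95% interval 0.07 to 1.31) at 1.7 mg/ml, 1.19 (0.58 to 1.80) at 2.6 mg/ml, 0.70 (0.08 to 1.31) at 3.5 mg/ml, and 0.37 (-0.25 to 1.00) at 4.4 mg/ml. Only the difference at 2.6 mg/ml was called (adjusted p = 0.038, edgeR), and it was the 1 SOCS gene of 8 there, where 7.87% of all genes were called. That call, made without the block, rested on the library of replicate 3, in which Socs5 reached its maximum of 23.5 CPM. Without this library the change was 0.93 (adjusted p = 0.225, edgeR). The call was lost too without replicate 2 or without replicate 3 as a whole (adjusted p = 0.336 and 0.311). In the blocked fit without that library, added after the data were seen, the change was 0.90 and still passed (adjusted p = 0.0978, edgeR). Without replicate 3 as a whole the blocked change was 0.92 and did not pass (adjusted p = 0.113).

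With the block, Socs4 (0.83, adjusted p = 0.0951), Socs5 (1.18, adjusted p = 0.00981), and Socs7 (0.73, adjusted p = 0.0279) were called at 2.6 mg/ml, 3 of 8 beside 21.6% of all genes. Socs7 was 54.2 to 59.9 CPM in the 3 libraries at this density and at most 46.8 CPM in suspension, so these groups do not overlap, as in 4.36% of all genes in this direction. Without the library of replicate 3 the blocked change of Socs7 was 0.53 (adjusted p = 0.205, edgeR) and that of Socs4 0.28 (adjusted p = 0.663), so both calls were lost. Socs4 was 0.97 (adjusted p = 0.16) without the block, and it passed when the 2.6 mg/ml library of replicate 1 (1.28, adjusted p = 0.0732) or replicate 2 of suspension titled without CCL19 (1.17, adjusted p = 0.0998) was left out. At 1.7 mg/ml Socs7 stood at -0.01 (95% interval -0.64 to 0.61).

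Socs3 had its highest library, 360 CPM, in replicate 2 at 4.4 mg/ml, beside 198 and 170 CPM in replicates 1 and 3. The suspension libraries had 191, 149, and 115 CPM (titled plus CCL19) and 136, 169, and 98.3 CPM (titled without), so the lowest library at 4.4 mg/ml lies inside the suspension range and the other 2 above it. The log2 change was 0.77 (95% interval 0.04 to 1.5, adjusted p = 0.179) without and 0.77 (0.18 to 1.37, adjusted p = 0.0567, edgeR) with the block, so that 0 of 8 SOCS genes were called without and 1 with the block. Of all genes, 14.8% and 31.9% were called at this density. At the unadjusted level 1 SOCS gene had p under 0.05 without the block, Socs3, and DESeq2 called 0. Leaving out the library with the highest level gave 0.36 (adjusted p = 0.628) without the block, and the blocked call was lost without replicate 2 or replicate 3 (adjusted p = 0.244 and 0.117), fits added after the data were seen.

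At the same density Socs1 had 15.5, 36.3, and 63.2 CPM, all within or below the suspension range of 29.7 to 83.2 CPM. Its change was -0.57 (95% interval -1.55 to 0.42) without and -0.67 (-1.27 to -0.06, adjusted p = 0.102, edgeR) with the block and so did not pass the threshold. At 1.7 and 3.5 mg/ml 0 of 8 SOCS genes were called with or without the block. The shares of all genes called were 0.0361% and 2.91% at 1.7 mg/ml and 4.90% and 18.4% at 3.5 mg/ml, without and with the block. At both densities Socs5 was the SOCS gene with an unadjusted p under 0.05 in both fits (0.031 and 0.0238 at 1.7 mg/ml, 0.0296 and 0.0221 at 3.5 mg/ml, edgeR), and DESeq2 without the block called 0.

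**Figure D3:**
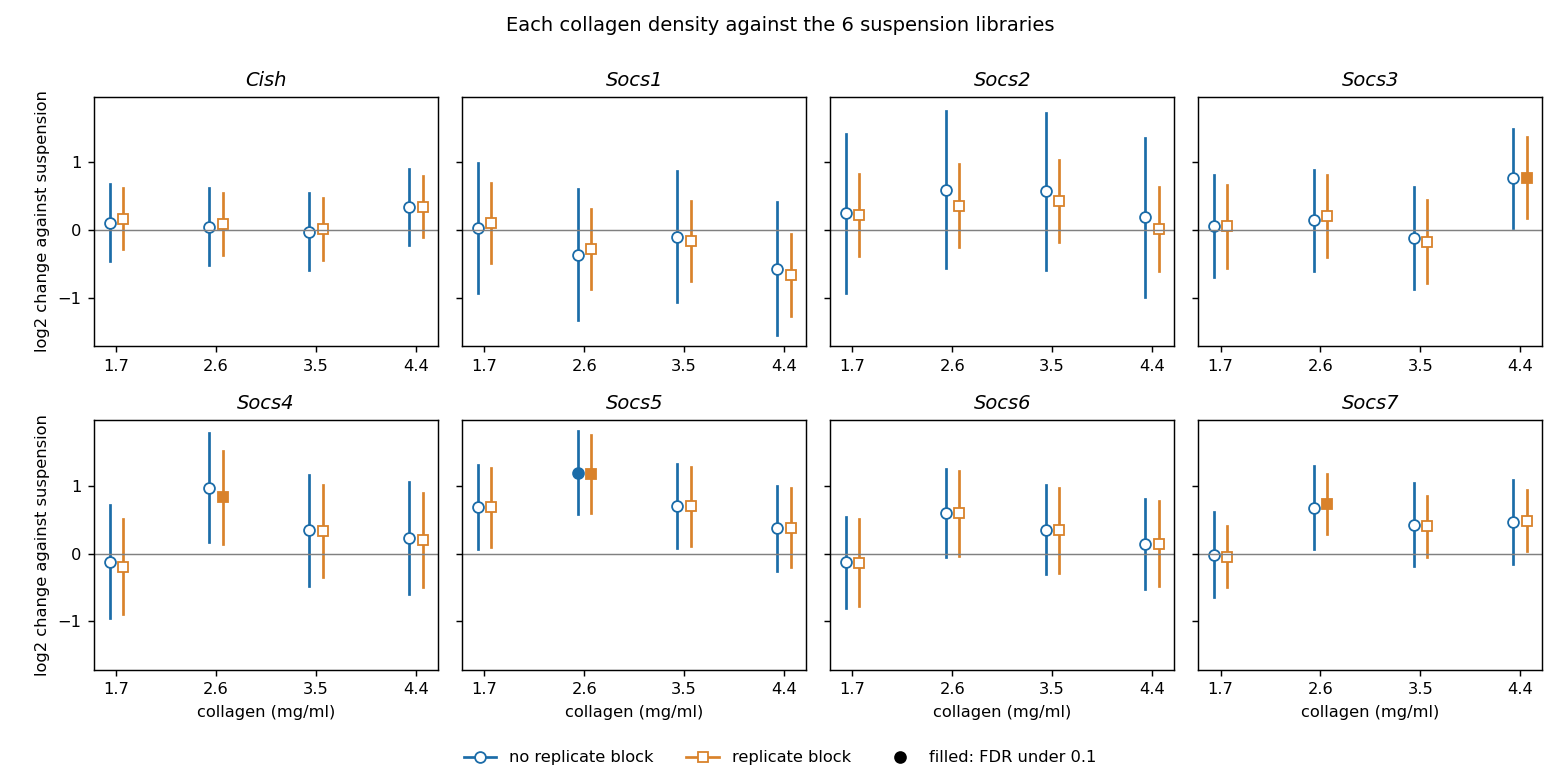
Log2 change of each SOCS gene (vertical axes, with 95% intervals) at each collagen density (horizontal axes, mg/ml) against the same 6 suspension libraries, without (circles) and with (squares) the replicate block, filled where the FDR is under 0.1. Socs5 is largest at 2.6 mg/ml (1.19) and smallest at 4.4 mg/ml (0.37), Socs3 is largest at 4.4 mg/ml (0.77), and the intervals of neighbouring densities overlap in every panel.

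Collagen density itself gave no call among the SOCS genes. The linear slope per mg/ml ranged from -0.17 for Socs1 and -0.16 for Socs5 to 0.13 for Socs7 and 0.21 for Socs3 on the log2 scale (adjusted p of at least 0.886, edgeR), and with the block from -0.24 for Socs1 (95% interval -0.49 to -0.0030, adjusted p = 0.351) to 0.20 for Socs3. The slope was called in 0.00722% of all genes without and 1.45% with the block, and the densest against the loosest gel in 0.00722% and 1.73%. In the fit without the block 0 of 8 SOCS genes had an unadjusted p under 0.05 for either contrast, and DESeq2 called 0 with or without it. With the block in edgeR, Socs1 reached an unadjusted p of 0.0475 for the slope. Between the ends of the density series it reached 0.0289 (-0.77), and Socs7 reached 0.0489 (0.53, edgeR with the block).

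Between neighbouring densities and between the suspension groups, edgeR called 0% of all genes in both fits. At an unadjusted p under 0.05 stood 542, 117, and 469 genes from 1.7 to 2.6, 2.6 to 3.5, and 3.5 to 4.4 mg/ml and 855 genes between the suspension groups. DESeq2 called 0, 0, and 2 genes in the density steps and 0 between the suspension groups, and with the block 0, 0, 261, and 194, none of them a SOCS gene. Among the members, the step of Socs4 from 1.7 to 2.6 mg/ml was 1.09 (unadjusted p = 0.0298, adjusted p = 0.9995, edgeR) and that of Socs3 from 3.5 to 4.4 mg/ml 0.88 (unadjusted p = 0.047, adjusted p = 0.993), and neither passed the correction. Between the suspension groups the largest differences among the members were -0.88 for Socs4 and -0.80 for Socs6 (unadjusted p = 0.0725 and 0.0435, both adjusted p = 0.761, edgeR). Across all 6 groups in a single test, 0 of 8 SOCS genes were called without the block, where 4.90% of all genes were, and Socs5 and Socs7 with it (adjusted p = 0.0634 and 0.0967), where 24.3% were. Socs5 was the member with an unadjusted p under 0.05 in the fit without the block (0.0181, edgeR), and DESeq2 called it.

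Some members differed between replicates in every group. Socs2 was higher in replicate 3 than in replicate 1 in 6 of 6 groups, on average 3.03-fold, with 99.3 to 113 CPM in the 6 libraries of replicate 1 and up to 515 CPM in replicate 3. Socs1 was higher in replicate 3 in 6 of 6 groups as well, by 2.34-fold. In the opposite direction, Socs3 and Socs7 were higher in replicate 1 than in replicate 3 in 6 of 6 groups, by 1.54- and 1.59-fold. Among all genes tested, 17.5% were above and 19.3% below in all 6 groups, so such an order was common. A replicate is a batch with 1 date and 1 lane in its library names, and biological and technical differences between the batches cannot be told apart. Within replicates, the mean of the collagen libraries exceeded that of the suspension libraries in 3 of 3 replicates for Socs3, Socs5, and Socs7, as in 24.3% of all genes. For Socs3 the difference in replicate 2 was only 0.014 on the log2 CPM scale. The smallest difference in any replicate was 0.33 for Socs7 and 0.70 for Socs5.

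Socs4 and Socs6 varied together from library to library. After the mean of each replicate was taken out, their log2 CPM correlated with r = 0.95 over the 18 libraries, the highest value of any pair of members, and Socs6 had no other gene with a higher r than Socs4. Both had their maximum in replicate 3 at 2.6 mg/ml (87.8 and 16.3 CPM) and their next highest value in replicate 2 of suspension titled without CCL19 (48.6 and 12.7 CPM), against 13.8 to 39.8 and 4.90 to 10.6 CPM elsewhere. Their exons have the lowest GC content of the family, 38.5% and 39.9%, beside 45.4% for Socs2, 47.8% for Socs5, and 53.1% to 58.8% for the other 4.

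The libraries differed in GC balance, measured as the mean log2 CPM deviation of the third of genes richest in GC minus that of the third poorest. It ranged from -1.08 in replicate 3 at 2.6 mg/ml to 0.73, and was -0.50 in replicate 2 of suspension titled without CCL19. Socs5 also had its highest suspension library there (10.1 CPM) and its highest level of all in the 2.6 mg/ml library of replicate 3. The fit without the block was repeated with GC and length offsets. Socs5 (0.83, adjusted p = 0.00592) and Socs7 (0.65, adjusted p = 0.0236, edgeR) were then called in collagen against suspension. Socs4 was not called with the offsets (0.19, adjusted p = 0.41) or without them (0.36, adjusted p = 0.447, edgeR). The part of GC balance in the levels of single genes was not tested. At 2.6 mg/ml the change of Socs4 was 0.97 without and 0.41 with the offsets (adjusted p = 0.246, edgeR, no block).

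**Figure D4:**
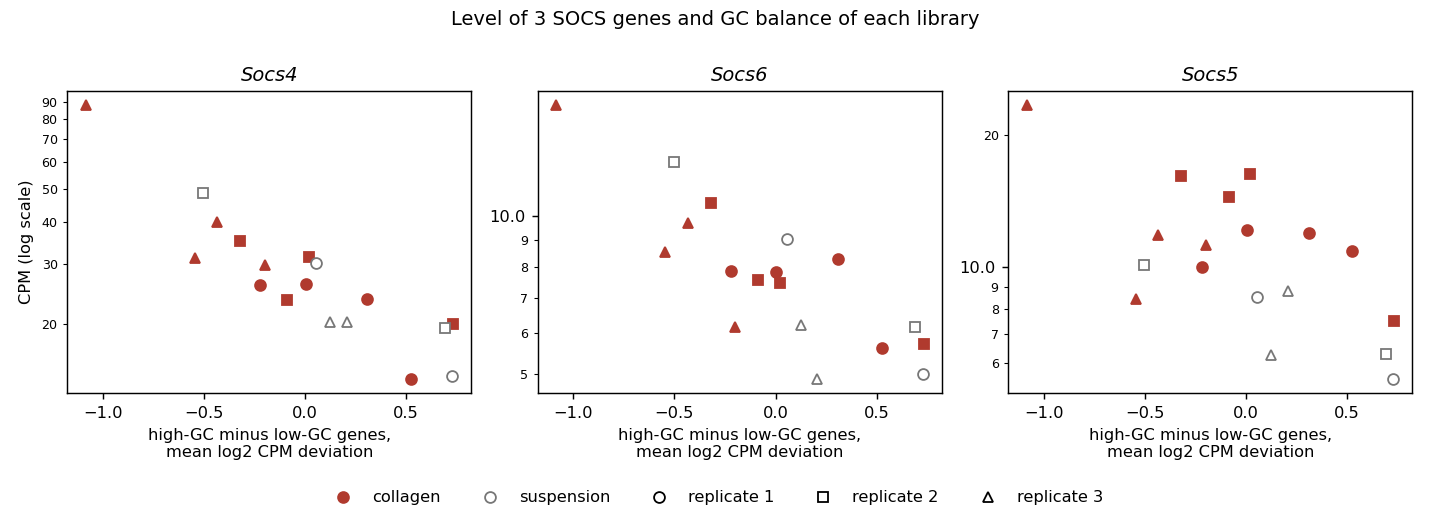
CPM (vertical axes, log scale) of Socs4, Socs6, and Socs5 in each library against the library's GC balance (horizontal axes, mean log2 CPM deviation of high-GC minus low-GC genes), with collagen filled, suspension open, and symbols by replicate. The library at -1.08 holds the highest value of each gene, and for Socs5 the suspension libraries lie at or below 10.1 CPM over their whole range of GC balance.

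By likeness over the 18 libraries after the replicate means were taken out, the genes closest to Socs5 were Slc7a6 (r = 0.94), Rapgef5 (0.93), and Tmem38b (0.91), and those closest to Socs7 were Tmcc1 (0.94), Btbd7 (0.93), and Gm340 (0.93). These points share libraries, depth, and GC balance, so the values describe these libraries only. Between Cish and Socs3, both cytokine-induced, r was 0.60, and between Socs1 and Socs2 it was 0.07. Cish had r = -0.55 with Socs2.

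The pathway that these proteins act on was followed through lists of genes chosen by function, whose counts stand beside 20.2% of all genes called without the block (7.78% higher, 12.4% lower) and 34.8% with it (15.6% and 19.3%). Of the 15 cytokines tested that signal through JAK and STAT proteins, 2 were higher in collagen and 0 lower, and with the block 4 and 1. In both fits the share called, both directions together, was smaller than that of all genes, while the share called higher was larger. Il6, the classical inducer of Socs3 through gp130, was 32.8 ± 19.8 CPM in suspension and 103 ± 70.8 CPM in collagen (log2 change 1.61, adjusted p = 0.0154, edgeR). Its collagen libraries ran from 36.9 to 284 CPM and its suspension libraries from 11.01 to 60.0 CPM, so the groups overlap. Il15, a STAT5-activating cytokine that DCs present to lymphocytes, was 16.3 ± 4.36 and 42.4 ± 16.8 CPM (1.33, adjusted p = 0.00205), with every collagen library (24.96 to 86.0 CPM) above every suspension library (9.23 to 20.9 CPM), as in 0.506% of all genes. The list median was 0.42, beside 0.0027 over all genes.

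Of 26 receptors tested, 0 were higher and 3 lower in collagen, the latter near the 12.4% of all genes, and with the block 3 were higher and 4 lower. Il6ra, the interleukin-6 binding chain, fell by 1.29 on the log2 scale (21.6 ± 12.9 to 9.25 ± 3.66 CPM, adjusted p = 0.0091, edgeR). Csf2rb2, a beta chain of interleukin-3 receptors, fell by 0.78 (adjusted p = 0.0181), and Ifngr1, the binding chain for interferon gamma, fell by 0.69 (adjusted p = 0.0564, edgeR). In replicate 3 a fall was not seen for Il6ra or Ifngr1. Il6ra had 8.465 and 8.636 CPM there in suspension and 10.14, 15.83, 10.20, and 4.646 CPM in collagen. Ifngr1 had 23.11 and 13.56 CPM in suspension and 24.33, 25.05, 25.17, and 11.44 CPM in collagen. Csf2rb2 shares sequence with Csf2rb, and the sources used here do not say how reads that match both were counted. The change of Csf2rb was -0.60 (adjusted p = 0.138). Il6st, which encodes the gp130 chain bound by SOCS3, was -0.12 (adjusted p = 0.715).

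Of the 11 JAK and STAT genes, 0 were higher and 2 lower, and with the block 1 and 3. Over both directions these shares lie near the 20.2% and 34.8% of all genes. The share called lower was larger than the 12.4% and 19.3% of all genes. Tyk2, a JAK kinase of interferon and interleukin-12 receptors, fell by 1.01 (394 ± 117 to 196 ± 35.1 CPM, adjusted p = 0.003), and Stat6, the interleukin-4 transducer, fell by 0.63 (460 ± 42.1 to 297 ± 52.7 CPM, adjusted p = 0.011, edgeR). For Stat6 all 12 collagen libraries, 216 to 386 CPM, lay below the lowest suspension library of 389 CPM, as in 1.52% of all genes. Jak2, Stat3, and Stat5a, through which Cish and Socs3 are induced, were 0.35, 0.0082, and 0.14 with adjusted p of 0.512, 0.982, and 0.676.

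The ubiquitin ligase that the SOCS box recruits had 9 subunits or cofactors tested, 2 higher and 0 lower in collagen, and 4 and 0 with the block. Over both directions 20.2% and 34.8% of all genes were called. The share called higher was larger than the 7.78% and 15.6% of all genes. Ube2f, the NEDD8-conjugating enzyme for the Cul5 ligase, rose by 0.67 (58.3 ± 14.3 to 93.1 ± 23.1 CPM, adjusted p = 0.0337, edgeR) and Nedd8 by 0.47 (adjusted p = 0.0896). Cul5 itself was 0.38 (adjusted p = 0.444), and the elongins Elob and Eloc were 0.24 and 0.85 (adjusted p = 0.605 and 0.319). Among 13 other inhibitors of the pathway, 3 were higher and 2 lower beside 20.2% of all genes (4 and 3 with the block beside 34.8%). Pias2 rose by 1.09 (adjusted p = 0.00156) and Pias1 by 0.65 (adjusted p = 0.00634), whereas Pias3, the STAT3-binding member of these SUMO ligases, fell by 0.57 (adjusted p = 0.0456, edgeR).

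For target genes of the STAT proteins the same shares of all genes, 20.2% without and 34.8% with the block, are the background. Of 10 STAT5 targets, Pim1, Bcl2l1, and Osm among them, 0 were called by edgeR without the block or by DESeq2, and 0 had an unadjusted p under 0.05 (median log2 change -0.26). With the block Lif, a gp130 ligand named after its value was seen, fell by 0.63 (adjusted p = 0.0737, edgeR). Of 12 STAT3 targets, Nfil3 rose by 0.73 (adjusted p = 0.0654) and Bcl3 fell by 0.57 (adjusted p = 0.0961, edgeR), and with the block 4 were higher and 1 lower. Of 10 STAT6 targets, Pdcd1lg2 (PD-L2) rose by 0.77 (91.0 ± 21.7 to 155 ± 44.6 CPM, adjusted p = 0.0278, edgeR), 0 were lower, and with the block 2 and 0. At 4.4 mg/ml against suspension, 3 STAT3 targets were higher and 0 lower, and 7 and 1 with the block. For STAT5 targets these counts were 0 and 0 without and 1 and 1 with the block, and for STAT6 targets 1 and 0, and 2 and 0. Of all genes, 14.8% and 31.9% were called at that density. None of the 8 lists held a gene called for the density slope without the block, where 0.00722% of all genes were called. With the block, 1 of the 13 other inhibitors was called higher, beside 1.45% of all genes called.

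**Figure D5:**
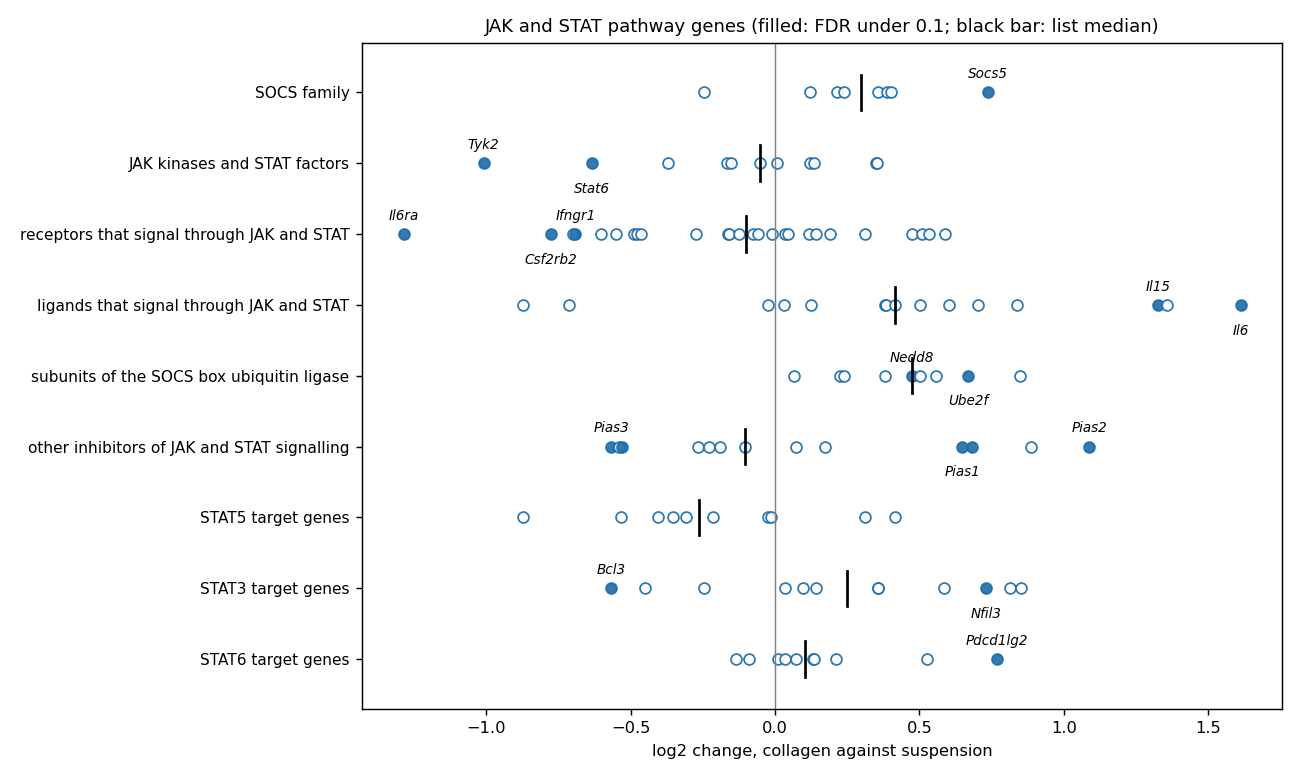
Log2 change between the 12 collagen and the 6 suspension libraries (horizontal axis) of each gene tested in the SOCS family and in 8 lists of pathway genes (rows), filled where the FDR is under 0.1 without the replicate block, with a black bar at each list's median. The called ligands Il6 and Il15 lie at 1.61 and 1.33 and the called receptors, the kinase Tyk2, and Stat6 between -1.29 and -0.63, while Socs5 at 0.74 is the called SOCS gene.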

How the data were processed

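The authors sequenced 18 libraries (3 replicates of 6 groups) and deposited raw counts, 1 whole number for each Ensembl gene and library. The submitters' processing notes name STAR 2.7.0f and GRCm38. Libraries were made with a stranded mRNA kit, and the methods name RSEM for TPM values. Which tool made the deposited whole-number counts, its strand setting, and its treatment of multiply matching reads are not given in the sources used here. Cish overlaps the antisense gene Gm17040, which holds 208 counts over all libraries. Groups and replicates came from the sample labels, and 0 columns were left unmapped.

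Symbols, positions, exon lengths, and GC content were taken from GENCODE M21. Counts were filtered (filterByExpr), scaled (TMM), and tested by quasi-likelihood F-test in edgeR 4.0.16 (R 4.3.3) over all 18 libraries, with Benjamini-Hochberg adjustment over 13844 genes and calls at an FDR of 0.1. Log2 CPM used a prior count of 2, and a standard error is the log2 change over the root of F. Floors of 3 counts cover counting error only, and p-values set a difference against the spread between libraries. Without the block that spread includes the differences between replicates. Genes varied between libraries of a group by 49.0% (the square root of edgeR's common dispersion), and by 33.1% once the replicate number entered as a block. The replicate numbers pair the libraries through the date and lane in their names. Across genes, which are not independent, same-numbered libraries deviated from their group means with an average r of 0.43 and a lowest r of -0.15.

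Alternatives were the block, DESeq2 1.42.0, its size factors, no filter, an FDR of 0.05, fits of only the groups compared, GC and length offsets (loess, span 0.5), and leaving out libraries. The members, gene lists, and tests were chosen with earlier results of these data known. The text names all 8 members, up to 3 called genes per pathway list by adjusted p, and the 3 genes most like each called member. Other genes (Csf2rb, Il6st, Jak2, Stat3, Stat5a, Cul5, Elob, Eloc, Pim1, Bcl2l1, Osm) were named for their role. Unadjusted values and the pair of members with the highest r were picked after their values were seen. One list of target genes is not reported here. The fit was tested on simulated data.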

Additional observations from a re-analysis of the deposited data

How the results depend on the processing

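For collagen against suspension, the count of called SOCS genes moved from 1 to 2 with the replicate block, with the block in DESeq2, and with GC and length offsets, to 3 with block and offsets, and to 0 with no filter on low counts, and it was 0 to 2 when libraries were left out. At 2.6 mg/ml it moved from 1 to 3 (block, and block in DESeq2), 2 (offsets, and offsets with block), and 0 (only the groups compared), and was 0 to 3 with libraries left out. From 0 it moved at 4.4 mg/ml to 1 (block, and offsets), 2 (block in DESeq2), and 4 (block and offsets), with 0 to 2 for left-out libraries. At 3.5 mg/ml it moved to 1 (offsets, and block in DESeq2) and 2 (block and offsets), with 0 to 1 for left-out libraries, and at 1.7 mg/ml to 1 (block and offsets). For any difference among the groups it moved to 1 (DESeq2, and offsets), 2 (block, and block with offsets), and 3 (block in DESeq2). The replicate block changed no other call of a SOCS gene. The cause of these shifts was not tested.

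Socs5 stayed between 0.65 and 0.85 in collagen against suspension over the 25 fits with libraries left out, 4 of them with the block and added after the data were seen, and was called in 23. Values that turned sign were all uncalled. With offsets, Socs1 at 2.6 mg/ml was 0.057 (0.029 with the block) and the Socs2 slope 0.038. With libraries left out, collagen against suspension ranged from -0.0046 to 0.32 for Cish, -0.0052 to 0.57 for Socs2, -0.063 to 0.65 for Socs4, and -0.040 to 0.47 for Socs6. The slopes ranged from -0.056 to 0.18 for Cish, -0.34 to 0.10 for Socs2, -0.046 to 0.40 for Socs3, -0.059 to 0.15 for Socs4, and -0.0048 to 0.13 for Socs6. At 2.6 mg/ml the ranges were -0.11 to 0.20 for Cish, -0.63 to 0.065 for Socs1, -0.27 to 0.98 for Socs2, and -0.12 to 0.49 for Socs3. At 4.4 mg/ml they were -0.76 to 0.60 for Socs2, -0.16 to 0.66 for Socs4, and -0.19 to 0.52 for Socs6. Over all alternatives, 993 of the single-gene values kept direction and side of the threshold, 50 turned sign, 29 newly passed, and 8 no longer passed.

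The spread between libraries of a group (49.0% without the block) sets the width of most intervals, which for Socs2 reach 2.38-fold. Socs5 and Socs6, with as few as 88 and 67 counts in a library, carry the largest relative counting error among the members.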
